A study of Homo sapiens with 12 samples.

Results

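TMEM158 encodes a transmembrane protein and is also known as RIS1, for RAS-induced senescence 1, because its transcript was found to rise in human fibroblasts in which active RAS had halted proliferation. In HL60 cells, a human myeloid leukemia line, its mRNA was measured by RNA-Seq in 12 libraries, and 1 gene of the 59251 listed in the deposited count table was followed here. The 4 groups of 3 libraries each were non-treated cells and cells given 1 µM all-trans retinoic acid (ATRA), 1 µM palbociclib (CDK4/6i) or both drugs (CDK4/6i+ATRA, the combination) for 48 h. All groups shared the same line and medium, and the libraries are labelled as biological replicates of that single line, so the spread given is that between these libraries. The controls are labelled untreated, and no solvent control is given for them. Any part of a drug solvent thus cannot be told apart from that of the drugs. TMEM158 was selected on its measured level in these same libraries, as a gene high with both drugs, and its values are therefore given as a description without a test.

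ATRA is the ligand of the retinoic acid receptors, which bind DNA and switch on genes of myeloid differentiation. Palbociclib blocks the kinases CDK4 and CDK6, which keeps the RB protein active and the E2F transcription factors silent, so that cells stop before S phase. RAS passes growth signals through RAF and MEK to the kinase ERK, whose targets include immediate early genes and inhibitors that feed back on the cascade. Strong and lasting RAS signalling can itself halt proliferation in primary cells, which is a classical form of senescence.

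TMEM158 lies on the minus strand of chromosome 3 (hg38), at chr3:45224466-45226287, as a single exon of 1822 bases. In GENCODE v44, the coding sequence spans 45225128 to 45226027, with untranslated stretches of 260 bases before it and 662 bases after it (stop codon included). No other gene of the table overlaps the locus, so its counts are not shared with an antisense or neighbouring gene. The 250 bases just upstream of the transcription start, at chr3:45226288-45226537 in GRCh38.p14, are shown from the RefSeq promoter table because the levels below differ so widely between treatments. They are written 5′ to 3′ on the strand of the gene, and capitals mark each match to GGGCGG or its reverse complement CCGCCC, the letters of the box that SP and KLF factors bind:
TMEM158 upstream: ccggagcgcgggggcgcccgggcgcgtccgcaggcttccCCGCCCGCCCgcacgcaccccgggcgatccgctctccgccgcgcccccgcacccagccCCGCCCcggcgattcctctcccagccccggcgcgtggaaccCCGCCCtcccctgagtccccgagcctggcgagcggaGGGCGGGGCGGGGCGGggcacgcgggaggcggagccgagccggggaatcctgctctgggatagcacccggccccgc

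With the first 50 transcribed bases added, this window was 82.7% G or C, above 99.1% of 35116 promoters of the same length, whose median was 58.7%. It held 46 CG dinucleotides against a median of 14. GGGCGG was found at 8 positions over both strands, 7 of them in the bases printed above, some of them overlapping. At least 1 match was found in 45% of all promoters and at least 8 in 0.812%. Searches on both strands found no AGGTCA (the unit of retinoic acid receptor sites, present in 13.8% of promoters), no TGANTCA (AP-1, 7.71%), no CCGGAA (the core bound by ETS factors, 17.2%), no TTTCCCGC (E2F, 1.63%) and no TATAAA (the TATA box, 11.5%). These searches describe letters in this window alone.

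Library depth was 12230923 to 18679544 counts, and libraries of the combined treatment were smaller than the others, with at most 14415276. Of the genes in the table, 13318 passed the filter on low counts and were tested. Levels are given as CPM (counts scaled to library depth), adjusted by the trimmed mean of M-values (TMM). The cells carried myeloid markers, with a summed level of 12 markers between 8367.3 and 8679.3 CPM in non-treated cells, 1814.1 and 1905.1 under ATRA, 6508.7 and 6563.5 under CDK4/6i, and 2287.2 and 2303.7 under the combination. In non-treated cells and under CDK4/6i the sum was set mainly by MPO, the myeloperoxidase gene. It stood at 6517.1 CPM in non-treated cells, 293 under ATRA, 3468.9 under CDK4/6i and 28 under the combination. The leukocyte gene PTPRC went the other way, from 123 CPM in non-treated cells to 789 under the combination. Of these 12 markers, 3 (ELANE, PRTN3 and AZU1) were listed at 0 in every library and are also listed on alternate contigs. For 20 markers of other cell types, the summed level was 13.5 to 27.7 CPM over all libraries. The part of these differences in the TMEM158 levels was not tested, and in bulk RNA a change per cell and a change in the share of cells cannot be told apart.

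TMEM158 was abundant with both drugs, present at a lower level with ATRA, low in non-treated cells and lowest with CDK4/6i. The non-treated libraries held 77, 62 and 62 TMEM158 counts, or 4.63, 3.89 and 3.49 CPM. The ATRA libraries held 529, 441 and 403 counts, or 32.6, 25.7 and 22.3 CPM. All 3 ATRA libraries lay above every non-treated library, the lowest of them 4.81 times the highest non-treated one.

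The CDK4/6i libraries held 27, 27 and 23 counts, or 1.40, 1.65 and 1.35 CPM. All 3 were below the lowest non-treated library, which was 2.12 times the highest CDK4/6i library. The CDK4/6i+ATRA libraries held 4582, 4992 and 5252 counts, or 420, 445 and 434 CPM. These 3 libraries contributed 90% of all TMEM158 counts, and the lowest of them was 12.9 times the highest ATRA library.

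**Figure D1:**
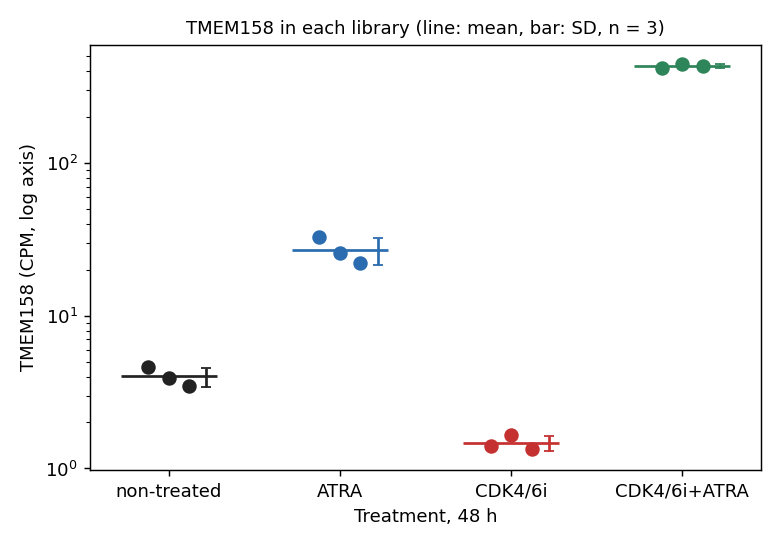
TMEM158 level in each library (CPM, log axis) by treatment, with points for libraries, lines for group means and bars for the SD (n = 3). The 4 groups do not overlap, and the CDK4/6i+ATRA libraries sit between 420 and 445 CPM.

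The group means were 4.0 ± 0.577 CPM in non-treated cells, 26.9 ± 5.26 under ATRA, 1.47 ± 0.162 under CDK4/6i and 433 ± 12.5 under the combination (SD, n = 3). Relative to the non-treated mean, expression was 6.71 ± 1.32 under ATRA, 0.366 ± 0.0405 under CDK4/6i and 108 ± 3.13 under the combination. The order from lowest to highest was thus CDK4/6i, non-treated, ATRA and CDK4/6i+ATRA, and no neighbouring groups in that order overlapped. The data therefore go against a reading of TMEM158 as induced by the 2 drugs together alone, since it was also higher with ATRA as a single drug and lower with CDK4/6i as a single drug. The spread was narrowest in the group with most counts, with a coefficient of variation of 2.89% with CDK4/6i+ATRA against 14.4% in non-treated cells, 19.6% with ATRA and 11.1% with CDK4/6i.

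Scaled by gene length, TMEM158 stood at 2.20 RPKM (reads scaled by gene length and depth) in non-treated cells, above 39.6% of the tested genes. At 14.7 RPKM with ATRA it was above 74.7% of them, and at 0.804 RPKM with CDK4/6i above 25.6%. With CDK4/6i+ATRA it reached 238 RPKM, rank 246 of 13318 genes.

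On the log2 scale of the edgeR fit, ATRA differed from non-treated cells by 2.74 (standard error 0.115), CDK4/6i by -1.45 (0.219) and CDK4/6i+ATRA by 6.76 (0.0816). CDK4/6i+ATRA differed from ATRA by 4.02 (0.0603) and from CDK4/6i by 8.20 (0.0944). Palbociclib thus went with a lower TMEM158 level in cells without ATRA and with a 16.1-fold higher mean level in cells given ATRA.

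If the single-drug differences in CPM had simply added, the CDK4/6i+ATRA mean would have been 24.3 CPM, and the measured mean was 17.8 times that. If the single-drug folds had multiplied, it would have been 9.83 CPM, and the measured mean was 44 times that. The interaction, which is the log2 fold change with both drugs minus the sum of the single-drug ones, was 5.46 (standard error 0.232). Among the 12684 tested genes that were above 3 counts in at least 1 library of every group, only TNFAIP8L3, a relative of the apoptosis regulator TNFAIP8, had a higher interaction, at 5.97 (standard error 0.53). In the same set, TMEM158 ranked 15 for CDK4/6i+ATRA against ATRA, 53 for the combination against non-treated cells and 266 for ATRA against non-treated cells. Over all 13318 tested genes, its rank was 12 for the interaction and, for those 3 comparisons, 55, 174 and 501.

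Of all tested genes, 192 (1.44%) met a rule for both drugs only, namely called at least 2-fold higher with CDK4/6i+ATRA than in each other group and called with neither single drug. A gene was called where its adjusted p in edgeR's quasi-likelihood test passed 0.05. In 40 of the 192, a group had at most 3 counts in every library. TMEM158 was not among the 192, because of its levels with each single drug. The number was 41 where at least 10 counts were required in every library, and 205 to 293 when each library was left out in turn. Of the 192, 32 had a mean of at least 5 CPM with CDK4/6i+ATRA. Among the list members described below, the rule held for EMP1 alone, a membrane protein gene at 0.593 CPM in non-treated cells, 0.391 under ATRA, 1.00 under CDK4/6i and 3.01 under the combination.

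The same order of groups without overlap was seen in 247 other genes, which with TMEM158 made 1.86% of those tested. In none of the 247 was the CDK4/6i+ATRA mean at least 10 times the ATRA mean, as it was for TMEM158. That comparison leaves out sparse genes whose libraries overlapped. By group means alone, CES1 had the same order and a wider step, from 0.315 CPM with ATRA to 8.42 with CDK4/6i+ATRA. RGCC (2.16 and 23.4 CPM) and PPARG (0.516 and 5.41 CPM) also had that order of means. Another class, set after the values were seen, took genes called at least 2-fold lower with CDK4/6i than in non-treated cells and at least 2-fold higher with CDK4/6i+ATRA than with ATRA. It held 19 genes (0.143%), with TMEM158 included as a description. Of the 19, 6 had a group with at most 3 counts in every library and so rest on fitted folds that depend on the prior count. The class numbered 12 under scaling by library size alone and 6 where at least 10 counts were required in every library.

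**Figure D2:**
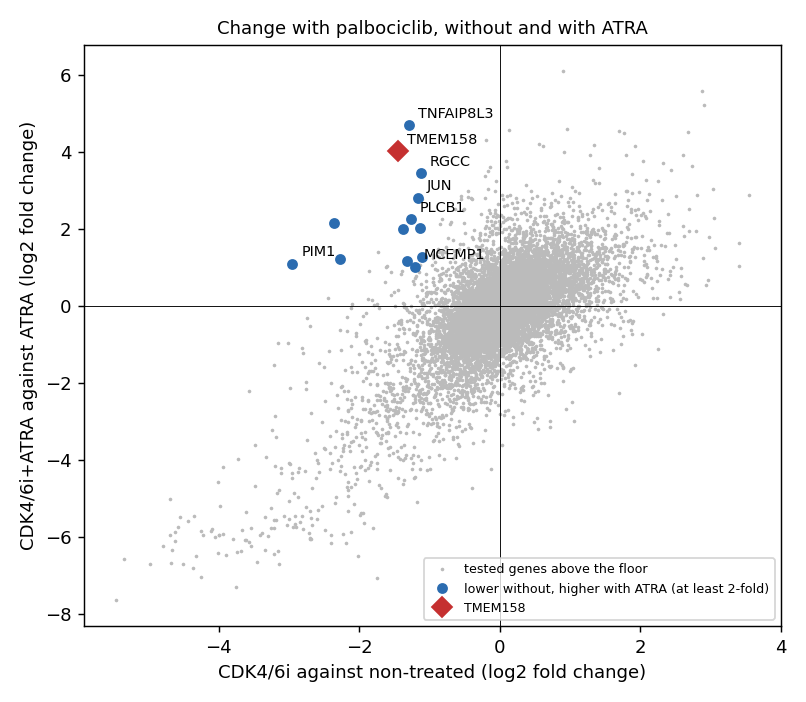
Log2 fold change with palbociclib in cells without ATRA (horizontal axis) and with ATRA (vertical axis) for the 12684 tested genes above 3 counts in every group. TMEM158 (diamond) lies at -1.45 and 4.02, among the few genes in the upper left with at least 2-fold changes in opposite directions (circles).

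Of the other genes in this class, 9 were also called at least 2-fold higher with ATRA than in non-treated cells, against 12.9% of all tested genes. They were picked for a shape like that of TMEM158, so their values, like those of TMEM158, are descriptions. JUN, a subunit of the AP-1 transcription factor, was at 13.3, 9.53 and 11.8 CPM in non-treated libraries, 38.6, 31.5 and 27.2 under ATRA, 5.45, 5.26 and 4.74 under CDK4/6i and 238, 220 and 218 under the combination. No groups overlapped, and the CDK4/6i+ATRA mean was the highest at 226 CPM. PLCB1, a phospholipase that acts downstream of G proteins, was at 3.69 ± 0.383 CPM in non-treated cells, 10.5 ± 1.17 under ATRA, 1.54 ± 0.243 under CDK4/6i and 49.9 ± 2.21 under the combination (SD, n = 3).

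PIM1, a survival kinase induced by cytokines, was at a mean of 5.04 CPM in non-treated cells, 49.6 under ATRA, 0.639 under CDK4/6i and 106 under the combination. MCEMP1, a membrane protein of mast cells and myeloid cells, was at 8.0 CPM in non-treated cells, 311 under ATRA, 3.42 under CDK4/6i and 627 under the combination. RGCC, a regulator of the cell cycle, was sparse, at 0.805, 2.16, 0.363 and 23.4 CPM in the same order of groups, and its CDK4/6i libraries overlapped the non-treated ones. The other 4 (SORCS2, KCNH4, OSBPL6 and LOC105374925) reached 3.35 to 11.3 CPM with CDK4/6i+ATRA.

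**Figure D3:**
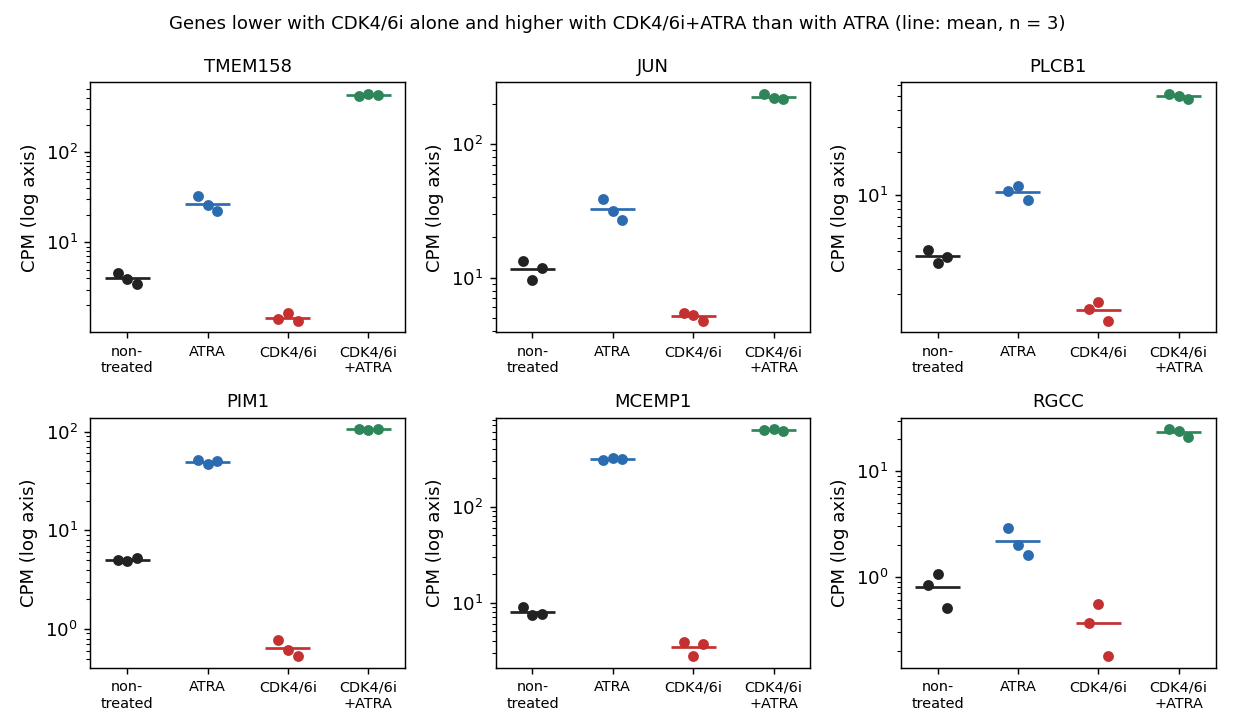
Level of TMEM158, JUN, PLCB1, PIM1, MCEMP1 and RGCC in each library (CPM, log axes that differ between panels), with points for libraries and lines for group means (n = 3). Each gene is lowest with CDK4/6i and highest with CDK4/6i+ATRA, by mean, and the step from ATRA to CDK4/6i+ATRA is widest for TMEM158, from 26.9 to 433 CPM.

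Likeness to TMEM158 was also measured across the 12 libraries by Pearson's r on log2 CPM, among 8959 genes with a mean of at least 5 CPM in CDK4/6i+ATRA. The 12 points fall into 4 treatment groups, and 578 genes had an r over 0.95, so a high r is common here and is a description. The highest values were those of TLNRD1, a talin rod domain protein (0.999), TPM3, a tropomyosin of the actin cytoskeleton (0.998), JUN (0.997), BCL7B, a subunit of SWI/SNF complexes (0.996), and PLCB1 (0.995). ZDHHC7, PHC2, WWP2 and PTP4A2 followed at 0.995, and SPINT1 at 0.994. The likeness was in shape, not in size, as TLNRD1 ranged only from 28.7 CPM with CDK4/6i to 182 with CDK4/6i+ATRA. None of these 10 remained among the first 10 by Spearman's rho.

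By the distance between the 3 log2 fold changes against non-treated cells, which weighs size, the nearest genes were PNOC (1.68), the nuclear receptor PPARG (1.72), SLC9A7 (1.75), the collagen gene COL4A2 (1.84), NINL (1.89), FAM131A (1.91), the membrane metalloprotease MMP14 (1.92), the macrophage growth factor receptor CSF1R (1.97), MARCKS (2.01) and KCTD12 (2.01). PNOC, PPARG and CSF1R had a group at or under 3 counts in every library, so their distances depend on the prior count. No gene lay within a distance of 1, and this list and the one by correlation shared 0 genes. Most of these 10 were rare before treatment, and of the 10, PNOC was at 0.0401 CPM and KCTD12 at 30.2 CPM in non-treated cells.

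The genes of pathways tied to TMEM158 were taken from lists compiled by hand, and their counts are set beside the share of all tested genes. In the cascade from RAS to ERK, 23 of 27 genes were tested. Under the combination, against non-treated cells, 18 were called higher and 5 lower, against 41% and 40.7% of all tested genes, and the median log2 fold change was 0.61 against 0.02 over all genes. RASGRP3, an exchange factor that loads RAS with GTP, rose from 0.221 to 14.8 CPM (log2 fold change 6.03, standard error 0.285). It passed the filter through the groups given ATRA, where it was high, so this is a description. RASGRP4, a related factor of myeloid cells, rose by 3.11, the exchange factor SOS2 by 1.66, the RAS relative RRAS by 1.63, the RAS inhibitor RASA1 by 1.23 and the kinase MAP2K2 by 1.00 on the log2 scale. HRAS was listed at 0 and is also listed on alternate contigs.

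For the single drugs, the median log2 fold change of the cascade genes was 0.28 with ATRA and -0.03 with CDK4/6i. All 3 treatments were set against the same non-treated libraries. With ATRA, 17 were called higher and 2 lower, against 32.1% and 35.5% of all genes. With CDK4/6i alone, 6 were called higher and 8 lower, against 28.3% and 27.9%. CDK4/6i+ATRA against ATRA gave 17 higher and 4 lower, against 36.9% and 32.8%, and against CDK4/6i 19 higher and 2 lower, against 39.1% and 39.5%. The interaction was called positive in 14 and negative in 1, against 24.5% and 27%.

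Of 31 genes that ERK signalling is known to induce, 27 were tested. Under the combination, against non-treated cells, 25 were called higher and 2 lower, beside the same 41% and 40.7% of all tested genes, and the median log2 fold change was 2.86 (2.81 with genes at or under 3 counts set to their bound). EGR2, an immediate early transcription factor, rose from 0.476 to 248 CPM (log2 fold change 9.0, standard error 0.105, given without a test as it passed the filter through treated groups alone). PHLDA1, a pleckstrin domain protein, rose by 8.24, EGR3 by 7.54, the uridine phosphorylase UPP1 by 7.52 and EGR1 by 6.88. LIF, a cytokine, was at 0.101 CPM in non-treated cells, 10.4 under ATRA, 0.0611 under CDK4/6i and 159 under the combination.

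Unlike TMEM158, the EGR genes were higher with CDK4/6i as a single drug. EGR1 was at 4.50 CPM in non-treated cells, 106 under ATRA, 18.8 under CDK4/6i and 531 under the combination, and its interaction of 0.26 was not called (edgeR adjusted p = 0.059). Of the 27 genes, 22 were called higher and 2 lower with ATRA (all genes 32.1% and 35.5%), and 14 higher and 5 lower with CDK4/6i (28.3% and 27.9%). CDK4/6i+ATRA against ATRA gave 23 higher and 4 lower (36.9% and 32.8%), and the interaction was called positive in 18 and negative in 3 (24.5% and 27%). SPRY4, an inhibitor of the cascade and chosen here after its values were seen, was at 4.66 CPM in non-treated cells, 5.81 under ATRA, 4.11 under CDK4/6i and 114 under the combination (interaction 4.50, standard error 0.182, given without a test). Of its relatives on the list, SPRY2 rose from 57.2 CPM in non-treated cells to 471 under the combination. SPRY1 went the other way, from 20.6 to 6.78 CPM.

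Of 31 senescence genes, 21 were tested. Under the combination, against non-treated cells, 15 were called higher and 4 lower (all genes 41% and 40.7%), and the median log2 fold change was 4.88. The cytokine IL1A rose by 9.91 (standard error 0.133), IL1B by 8.39, the chemokine CCL2 by 7.29 and CDKN2B, an inhibitor of CDK4 and CDK6, by 6.84. IL1A passed the filter through treated groups alone and is given without a test. IL1A, IL1B and CCL2 are also made by activated myeloid cells. GDF15, a stress cytokine, was at 0 CPM in non-treated cells and 180 with CDK4/6i+ATRA. With ATRA 13 were called higher and 6 lower (all genes 32.1% and 35.5%), and with CDK4/6i 15 higher and 3 lower (28.3% and 27.9%). The interaction was called positive in 10 and negative in 4 (24.5% and 27%). IL1B was higher with CDK4/6i alone (1.70, standard error 0.128, edgeR adjusted p = 2.1e-16), where TMEM158 was lower.

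**Figure D4:**
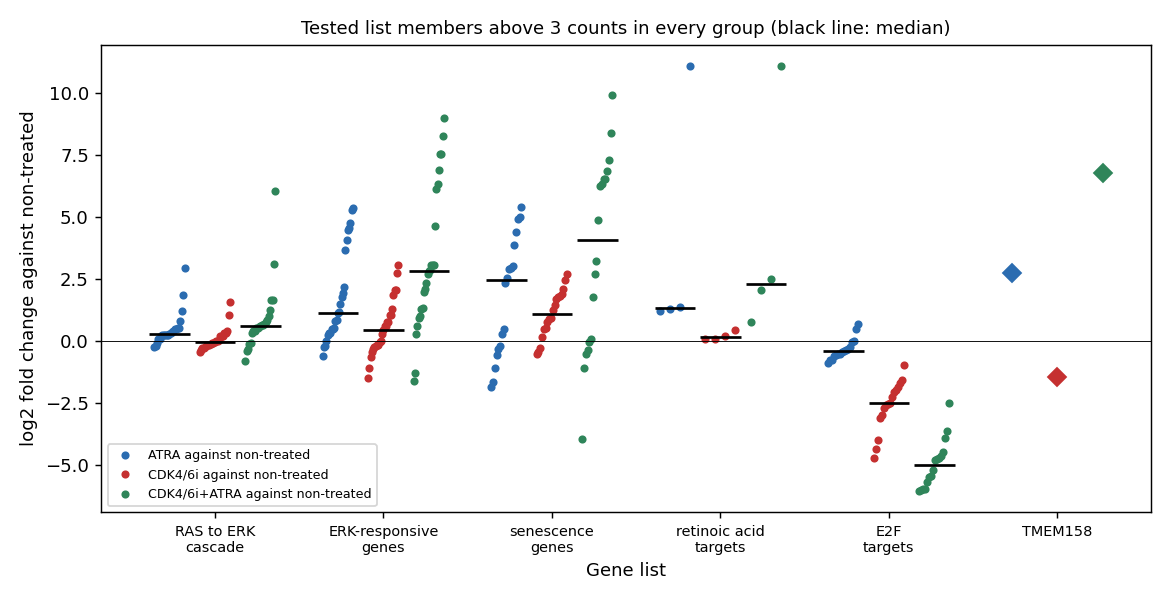
Log2 fold change of ATRA, CDK4/6i and CDK4/6i+ATRA against non-treated cells for the tested members of 5 gene lists above 3 counts in every group, with black lines for medians, and for TMEM158 (diamonds). TMEM158 is at 2.74, -1.45 and 6.76, with CDK4/6i alone below 0 where the medians of the ERK-responsive and senescence genes are above 0. Some members of both lists also lie below 0 there.

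Known retinoic acid targets and E2F targets were also described, as mRNA levels at 48 h. Of 12 retinoic acid targets, 7 were tested and all 7 were called higher with ATRA (all genes 32.1%) and with CDK4/6i+ATRA (41%), and 2 with CDK4/6i (28.3%). CD38, an ectoenzyme of myeloid differentiation, was at 0.179 CPM in non-treated cells, 399 under ATRA, 0.188 under CDK4/6i and 405 under the combination. The difference between CDK4/6i+ATRA and ATRA was thus 0.02 on the log2 scale for CD38 (standard error 0.043, edgeR adjusted p = 0.67), while TMEM158 differed by 4.02. TGM2, a transglutaminase, was at 2023.6 CPM with ATRA and 1883.9 with CDK4/6i+ATRA, and DHRS3, a retinaldehyde reductase, at 126 and 190. STRA6, a retinol carrier receptor, was at 1.26 and 10.2 CPM in those groups. With CDK4/6i+ATRA, the receptor gene RARA rose by 2.06 on the log2 scale.

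All 16 E2F targets were called lower under CDK4/6i (median -2.51, all genes 27.9% lower) and under the combination (median -5.00, all genes 40.7% lower). With ATRA, 12 were called lower and 2 higher (all genes 35.5% and 32.1%). MCM4, a subunit of the replicative helicase, fell from 335 to 5.04 CPM with CDK4/6i+ATRA (log2 fold change -6.05, standard error 0.0725, edgeR adjusted p = 2.7e-50). The log2 fold change was -5.99 for E2F1, -5.98 for the cyclin gene CCNA2, -5.97 for the replication licensing gene CDC6, -5.69 for TYMS, which makes thymidylate, and -5.47 for RRM2, a subunit of ribonucleotide reductase. The low TMEM158 level with CDK4/6i alone thus lay beside a fall of these 16 genes, and its high level with both drugs beside a deeper one, as 14 of the 16 were called lower under the combination than under CDK4/6i (all genes 39.5%). Any part of cell cycle arrest in the TMEM158 level was not tested.

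Within 500000 bases of TMEM158 lie 27 other genes of the table, of which 22 had counts and 11 were tested. Under the combination, against non-treated cells, 2 were called higher and 7 lower, against 41% and 40.7% of all tested genes, and their median log2 fold change was -0.36. CDCP1, a transmembrane protein phosphorylated by SRC kinases and at an offset of -78 kb, was at a mean of 0.33 CPM in non-treated cells, 3.37 under ATRA, 0.265 under CDK4/6i and 7.6 under the combination. CDCP1 passed the filter through the groups given ATRA, so its rise with ATRA (log2 fold change 3.29, standard error 0.338) is given without a test. It stood 1.18 above the ATRA level under the combination (log2 scale, standard error 0.21, edgeR adjusted p = 2.6e-06). Its difference with CDK4/6i alone was -0.34 (standard error 0.556, edgeR adjusted p = 0.63), and its libraries there overlapped the non-treated ones.

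The other gene called higher was the ribosomal pseudogene RPS24P8 (0.88), whose reads may come from related copies. KIF15, a mitotic kinesin, and EXOSC7, a subunit of the RNA exosome, were called lower, with log2 fold changes of -6.29 and -2.17. LIMD1 (-0.82), KIAA1143 (-0.44), LARS2 (-0.42), SACM1L (-0.36) and ZDHHC3 (-0.10) were called lower, and TMEM42 and CLEC3B were not called. KIF15, KIAA1143, TMEM42 and ZDHHC3 are also listed on alternate contigs, where part of their reads may have gone. The other 11 genes with counts did not pass the filter. The nearest gene, LOC101928636, at an offset of -7.69 kb (toward lower coordinates), had 0 CPM in 3 groups and 0.0856 CPM with CDK4/6i+ATRA. With ATRA 2 of the 11 were called higher and 5 lower (all genes 32.1% and 35.5%), and with CDK4/6i 3 higher and 6 lower (28.3% and 27.9%).

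**Figure D5:**
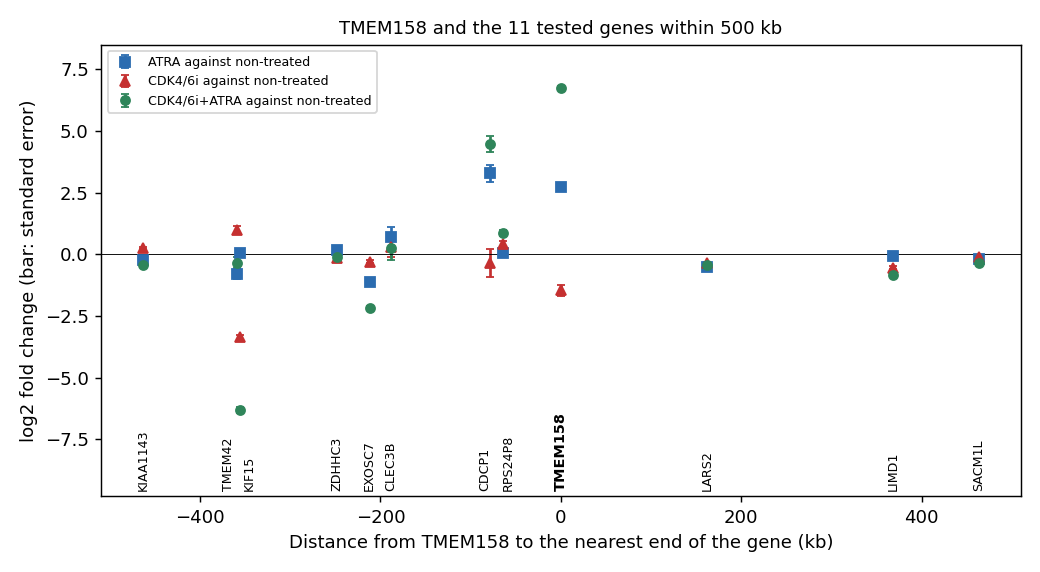
Log2 fold change against non-treated cells (bars show the standard error) for TMEM158 and the 11 tested genes within 500000 bases, by distance from TMEM158. TMEM158 reaches 6.76 with CDK4/6i+ATRA, CDCP1 4.47, and the other 10 genes lie between -6.29 and 0.88.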

How the data were processed

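RNA-Seq libraries from HL60 cells were made with a directional kit. Per the labels and the submitters' processing notes, the authors trimmed the reads with Trimmomatic 0.33 and aligned them with STAR 2.7.11a to hg38, and deposited whole-number gene counts without normalization. The paper names RSEM, while the table has the column layout of featureCounts. Whether reads were counted by strand is not given in the sources used here. Samples were grouped by their labels.

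The counts were filtered with filterByExpr on the 4 groups, normalized with TMM and fitted over all 12 libraries with edgeR 4.0.16 (R 4.3.3), as a model of the 4 groups with 8 residual degrees of freedom. Quasi-likelihood F tests were adjusted by Benjamini-Hochberg over 13318 genes, with a threshold of 0.05. The authors tested with DESeq2, used here (1.42.0) as an alternative. Genes named with at most 3 counts in every library of a group are given as levels, without a fold change, while counts and medians over genes use the fitted values. A floor of 3 counts was 0.156 to 0.275 CPM. A gene could pass the filter through a single treated group, and the counts of called genes include such genes. Fits were tested on simulated counts.

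TMEM158, the gene lists and the rules were chosen with earlier results of these data known. The genes named are TMEM158, the 10 most like it by each measure, the tested neighbours, and up to 6 called list members with the largest change. Some genes that this rule covers are not reported here. Others were chosen after their values were seen. Figures were drawn with matplotlib 3.10.9. Alternatives were other scalings, other filters, DESeq2, a replicate block, other likeness measures and leaving out each library. The ChIP-Seq data were not used here.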

Additional observations from a re-analysis of the deposited data

Results flagged for a closer look

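Among the genes picked as at least 2-fold lower with CDK4/6i alone, at least 2-fold higher with CDK4/6i+ATRA than with ATRA, and called at least 2-fold higher with ATRA than in non-treated cells, TMEM158 and 5 others above 3 counts in every group had every CDK4/6i library below every non-treated library and every CDK4/6i+ATRA library above every ATRA library. The log2 fold change with both drugs minus the sum of the single-drug ones was 5.46 for TMEM158, 4.04 for PIM1, 3.97 for JUN, 3.52 for PLCB1, 2.47 for LOC105374925 and 2.23 for MCEMP1. The difference was not tested for these genes, because they were picked for this pattern in the same libraries.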

How the results depend on the processing

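Of 368 values recomputed under the alternatives, 357 kept their direction and stayed within a set tolerance (for TMEM158, the pooled SD of 0.186 between replicates on the log2 scale, and for counts of genes a factor of 1.5), 11 moved past it and 0 reversed. With totals in place of TMM (library size alone), the median over all tested genes for the combination against non-treated cells went from 0.0184 to -0.2471 on the log2 scale, and TMEM158 moved with it, to 6.49 against non-treated cells, 3.71 against ATRA, 7.93 against CDK4/6i and 5.15 for the interaction. Under the same scaling, 12 genes were lower with CDK4/6i alone and higher with CDK4/6i+ATRA than with ATRA. Where at least 10 counts were required in every library, so that fewer genes were tested, 41 genes were called with both drugs only, 6 were in the class of opposite palbociclib effects, and 11 of 12 tested senescence genes and 3 of 3 tested retinoic acid targets were called, against 86.5% of the 10296 genes tested under that filter. Leaving out each library in turn gave 205 to 293 genes with both drugs only, the highest without non-treated replicate 2. All were above the 192 of the full set. The rule asks only that a gene not be called with a single drug, and the cause of the higher numbers was not tested. The same fits gave TMEM158 log2 fold changes of 2.58 to 2.86 with ATRA, -1.54 to -1.33 with CDK4/6i and 6.65 to 6.87 with CDK4/6i+ATRA, and interactions of 5.34 to 5.61. Spearman's rho kept 0 of the 10 genes most like TMEM158 by Pearson's r. Deviations of same-numbered libraries correlated at -0.07 to 0.033 over all tested genes, so no pairing by replicate number was seen. This does not exclude that same-numbered libraries were handled as a set. With the replicate number as a block, the interaction of TMEM158 was 5.47 and 10824 genes were called under the combination against non-treated cells. The CDK4/6i values of TMEM158 rest on 23 to 27 counts per library, which limits their precision.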
